A study of Mus musculus with 4 samples.

Results

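Long noncoding RNAs that are prominent in brain were followed here in the hippocampus of Lsd1 knock-in (KI) mice and of their wild-type (WT) littermates. They are Meg3, Rian, Mirg, Miat, Malat1, Neat1 and Snhg11, taken by symbol and matched to their Ensembl identifiers, and they make up 7 of the 26328 genes that had reads in at least 1 library and 7 of the 18436 genes tested. All mice were C57BL/6 males. An age of 8 to 15 weeks is given for the mice of the behavioural experiments, and none is given for the sequenced mice in particular. The KI mice carry Lsd1 SA/SA, in which the serine of LSD1 that PKCα phosphorylates is replaced by alanine, and the WT mice carry the normal allele. LSD1, encoded by Kdm1a, removes methyl groups from histone lysines. Each group had 2 libraries of hippocampal poly(A) RNA, and nothing in the labels says whether 1 or several animals gave a library, so the errors below are those between these libraries. The question put to the data was how the level of each RNA compared between KI and WT.

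Long noncoding RNAs are transcribed and spliced like messenger RNAs but act, as far as is known, without being translated. Meg3, Rian and Mirg lie one after the other in the imprinted Dlk1-Dio3 domain, where they are expressed from the maternal chromosome, and Rian and Mirg host small nucleolar RNAs and microRNAs. Malat1 and Neat1 are neighbouring unspliced nuclear RNAs, of which Malat1 gathers in nuclear speckles and Neat1 builds paraspeckles. Miat, also called Gomafu, is a nuclear RNA of neurons that binds splicing factors, and Snhg11 is a neuron-enriched host of small nucleolar RNAs.

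Where these RNAs begin and what the maternal cluster carries are shown by a few sequences. RefSeq (GRCm38.p6) held windows from 250 bases before to 50 bases after the start for 6 of the 7 genes, Neat1 excepted, with 2 windows for Meg3. The windows of 4 genes that were higher in both KI libraries, described further on, are printed 5′ to 3′ on the strand of the gene, with matches to the searched motifs in capitals. They lie at chr12:109540746-109541045 (+) for the upstream start of Meg3, chr12:109603695-109603994 (+) for Rian, chr5:112228899-112229198 (−) for Miat and chr2:158375463-158375762 (+) for Snhg11.
Meg3: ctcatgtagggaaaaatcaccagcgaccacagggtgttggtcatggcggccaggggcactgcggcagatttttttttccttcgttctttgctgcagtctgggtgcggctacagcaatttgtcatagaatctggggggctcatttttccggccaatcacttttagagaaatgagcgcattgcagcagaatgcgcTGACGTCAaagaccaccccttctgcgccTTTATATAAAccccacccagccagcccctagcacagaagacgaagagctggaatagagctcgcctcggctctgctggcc
Rian: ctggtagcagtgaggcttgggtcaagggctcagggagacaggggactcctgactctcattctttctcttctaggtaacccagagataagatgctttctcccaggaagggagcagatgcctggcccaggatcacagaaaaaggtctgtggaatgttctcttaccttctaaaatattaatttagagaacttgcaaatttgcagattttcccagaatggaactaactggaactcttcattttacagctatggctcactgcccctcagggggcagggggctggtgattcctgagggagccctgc
Miat: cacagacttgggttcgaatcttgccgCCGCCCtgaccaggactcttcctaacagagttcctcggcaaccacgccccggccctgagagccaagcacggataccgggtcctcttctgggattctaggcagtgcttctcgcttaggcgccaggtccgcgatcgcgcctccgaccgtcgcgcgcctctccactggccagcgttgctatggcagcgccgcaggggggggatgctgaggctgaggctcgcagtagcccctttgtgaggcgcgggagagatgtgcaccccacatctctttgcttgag
Snhg11: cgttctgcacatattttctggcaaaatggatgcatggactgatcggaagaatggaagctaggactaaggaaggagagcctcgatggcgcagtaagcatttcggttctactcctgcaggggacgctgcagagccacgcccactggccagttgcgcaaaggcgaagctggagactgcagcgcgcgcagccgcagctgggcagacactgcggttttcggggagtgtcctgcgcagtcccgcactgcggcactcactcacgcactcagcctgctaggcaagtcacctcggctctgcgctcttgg
The search covered the cAMP response element TGACGTCA, the TATA motif TATAAA, the GC box GGGCGG, the E-box CACGTG, and TTCAGCAC and GGACAGC, which are parts of the RE1 element bound by REST, each on both strands. The printed Meg3 window held 1 TGACGTCA, found in 1.79% of all 32851 promoter windows, and 2 overlapping TATAAA matches, 1 on each strand, a motif found in 13.6% of the windows. The Miat window held 1 GC box, which 35.7% of all windows held. None of the 6 motifs was in the printed windows of Rian and Snhg11. Base composition set the windows apart: the Rian window held 0 CG dinucleotides, against a median of 7 over all windows, while those of Snhg11 and Miat held 21 and 25 and the printed one of Meg3 held 13. The second Meg3 window, at chr12:109545148-109545447 (+), held 1 CG dinucleotide and 0 copies of every motif. These matches describe letters and no factor binding was measured.

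The RefSeq start lay within 5 bases of the annotated gene start for Rian and for the upstream start of Meg3, 4397 bases inside the gene for the second start of Meg3, 75 bases inside the gene for Snhg11 and 447 bases inside it for Miat. For Mirg it lay 5217 bases inside the gene, so its window was not printed. That window held 1 match to GGACAGC, found in 6.56% of all windows, and 0 copies of the other motifs. The Malat1 window, also not printed, held 0 copies of every motif.

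MicroRNA hairpins annotated inside Meg3, Rian and Mirg gave 33 mature microRNAs in RefSeq. Those shown here are from both hairpins in Meg3 exons and from the Mirg hairpins whose intervals had the highest levels (1 arm each), with the pair in Mirg that has a seed in common added. The seed, bases 2 to 8, is in capitals.
miR-1906 (Meg3, exon): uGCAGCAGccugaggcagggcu
miR-770-5p (Meg3, exon): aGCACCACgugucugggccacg
miR-770-3p (Meg3, exon): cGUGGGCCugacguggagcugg
miR-3072-5p (Mirg, exon): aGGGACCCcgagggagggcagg
miR-410-3p (Mirg, exon): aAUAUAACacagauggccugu
miR-377-3p (Mirg, exon): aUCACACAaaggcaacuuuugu
miR-453 (Mirg, intron): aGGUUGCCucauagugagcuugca
miR-496a-5p (Mirg, intron): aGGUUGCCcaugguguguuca
Among the 33, a single seed was shared, GGUUGCC of miR-453 and miR-496a-5p. Poly(A) libraries of this kind do not capture the mature forms, so the values given below for hairpin intervals are of longer RNA that covers them.

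Worked out from the RPKM values, library depth was 13414957 and 8827967 mapped reads in WT and 14381252 and 14949756 in KI. Of these reads, 99.3% lay on genes in each library. Levels are in RPKM, reads per kilobase of exon after scaling to library depth, and so can be compared between genes longer than a sequenced fragment. Differences are KI minus WT on the scale log2(RPKM + 1), with limma's SE and a Benjamini-Hochberg adjusted p over 18436 genes, and a call needed both an adjusted p below 0.1 and a 1.2-fold change or more. By this rule limma called 0 genes (0%), while 1774 had an unadjusted p under 0.05. With 2 libraries against 2, the smallest p of an exact permutation test is 0.333. The Kdm1a transcript measured 11.6 and 11.2 RPKM in the WT libraries, 11 and 11.2 RPKM in the KI libraries, with a difference of -0.04 (limma adjusted p = 0.872). Since the allele changes an amino acid, this level does not check the labels.

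Of the 7 RNAs 5, namely Meg3, Rian, Mirg, Miat and Snhg11, were higher in both KI libraries than in both WT libraries, with mean ratios from 1.1 to 1.29, and Malat1 and Neat1 overlapped between the groups in the values as deposited. None of the 7 passed the adjusted threshold. Of all genes tested, 24% had KI values that both exceeded the WT values and 18.1% had KI values that were both lower, and among 1548 other long noncoding genes the shares were 21% and 19%. The median difference was 0.20 over the 7 RNAs and 0.01 over all genes tested. The same 5 RNAs had an unadjusted limma p under 0.05, which 6.3% of all genes had with a higher KI level.

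**Figure D1:**
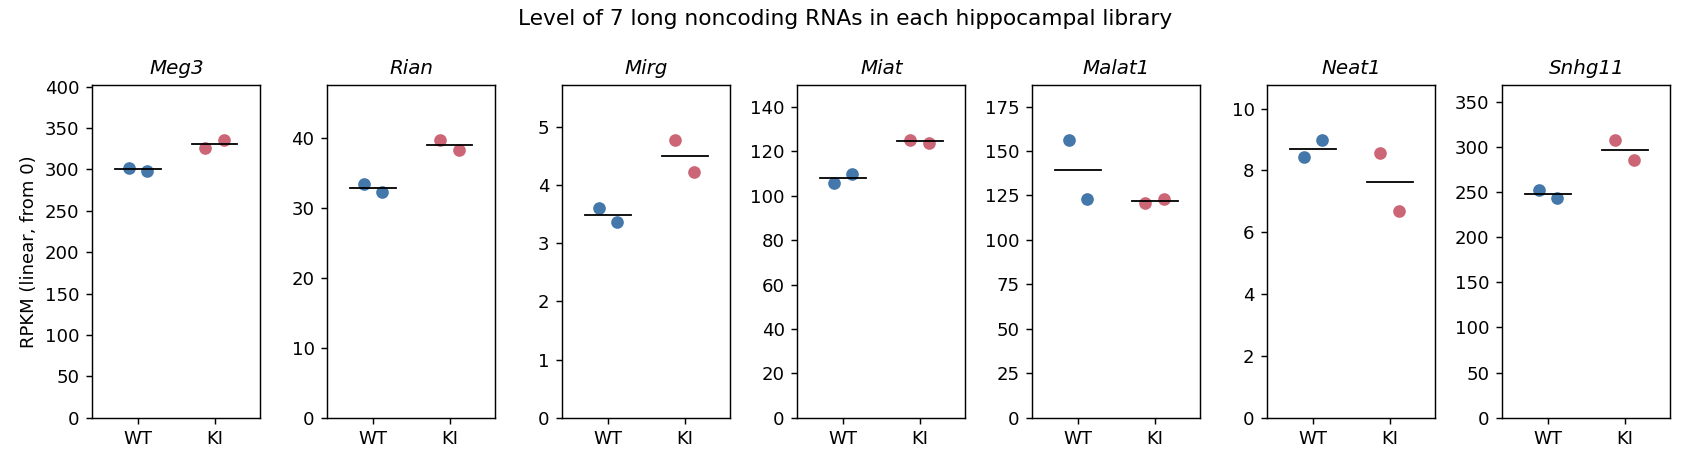
RPKM of each RNA (linear vertical axes from 0, a scale for each panel) in the 2 WT libraries (blue) and the 2 KI libraries (red), with replicate 1 to the left of replicate 2 and a line at the group mean (n = 2). Both red points lie above both blue points for Meg3, Rian, Mirg, Miat and Snhg11, whereas in Malat1 WT replicate 1 stands above the other libraries and in Neat1 KI replicate 2 stands below them.

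Summed over the 7 RNAs, the level was 862 and 818 RPKM in WT and 932 and 916 RPKM in KI, so 1.04% and 1% of the mapped reads in WT and 1.13% and 1.12% in KI came from these genes. Ordered by mean level, Meg3 came first at 315 RPKM and ranked 96 among the 18436 genes, and Snhg11 followed at 272 RPKM. Malat1 at 131 RPKM and Miat at 116 RPKM changed places between libraries, with Malat1 higher in both WT libraries and Miat higher in both KI libraries, so their order was not settled. Rian at 35.9 RPKM, Neat1 at 8.16 RPKM and Mirg at 3.99 RPKM followed, and each of the other neighbours in this order kept its place in all 4 libraries. The rank of Mirg was 11013.

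Meg3, annotated at chr12:109541001-109571726 (+) with 8 separate exon blocks, is the first and by far the most abundant RNA of the maternal cluster. Its level was 302 and 298 RPKM in WT and 326 and 335 RPKM in KI. The lower KI value was 1.08 times the higher WT value, and the groups did not overlap. The group means were 300 ± 2.37 and 330 ± 5.75 RPKM (SD, n = 2), with a difference of 0.14 (SE 0.05, limma adjusted p = 0.49). Each value rested on 47632 to 90459 reads, so that the counting error of 0.332 to 0.458% was below the coefficient of variation of 0.79% in WT and 1.74% in KI. An antisense gene, Gm26906, overlaps 1228 of the 18089 exon bases of Meg3 and had 135 and 141 RPKM in WT against 158 and 155 RPKM in KI. The kit does not mark strand and the strand of the counting is not stated, so reads in the shared 6.79% cannot be told apart.

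The pair of microRNA hairpins printed above for Meg3 lies in its exons, and the RPKM values of their intervals exceeded that of the whole gene. The intervals are shorter than a sequenced fragment, so reads reaching in from the rest of Meg3 can raise their RPKM. Their values therefore cannot be compared with that of the gene. Mir1906-1 had 1284 and 1260 RPKM in WT and 1334 and 1329 in KI, while Mir770 had 987 and 1027 against 1050 and 1129. In both, the KI values were above the WT values, with differences of 0.07 and 0.11. These intervals overlap exons of Meg3 and are not independent of it.

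Rian, at chr12:109603940-109661716 (+), the long host of the small nucleolar RNAs of the domain, had 33.3 and 32.3 RPKM in WT against 39.6 and 38.2 RPKM in KI. Both KI libraries were higher than both WT libraries. The means were 32.8 ± 0.732 and 38.9 ± 0.985 RPKM (SD, n = 2), a ratio of 1.18 and a difference of 0.24 (SE 0.05, limma adjusted p = 0.364). Of the 7 RNAs Rian had the smallest adjusted p, and 10.1% of all genes had a larger positive difference. The shortest exon length that turned its RPKM values into whole reads was 14381 bases, less than the 18234 bases in the later annotation. The comparison was not run on the longer model.

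Within Rian, 13 small nucleolar RNA genes and 4 microRNA genes are annotated. The level along them was uneven. Gm24895, in an exon, had 613 and 602 RPKM in WT and 703 and 630 in KI. Over so short an interval these values cannot be compared with that of the host. The 8 small nucleolar RNA genes in exons had a median of 7.44 RPKM, and the 9 small RNA genes in introns, microRNAs included, one of 3.54 RPKM. Gm24895 was named because its level stood out after the values were seen. Its 4 values did not overlap between groups, with a difference of 0.13. All the others rested on at most 21 reads in a library. Of the 17 small RNA genes, 16 were tested, 4 had both KI values above WT and 2, Mir370 (-1.49, from 1 to 7 reads) and Gm23912 (-1.18, from 0 to 3 reads), had both below.

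Mirg, the microRNA host at chr12:109729764-109749460 (+), was the scarcest of the 7 RNAs. It had 3.61 and 3.36 RPKM in WT and 4.77 and 4.22 RPKM in KI, from 353, 216, 500 and 460 reads. The KI values were again both above the WT values. The means of 3.48 ± 0.179 and 4.49 ± 0.388 RPKM (SD, n = 2) gave the largest ratio of the 7, 1.29, with a difference of 0.29 (SE 0.09, limma adjusted p = 0.49). The added pseudocount shrinks the difference of a gene at this level. When whole reads, worked out from the RPKM values, were tested with limma's voom in place of log RPKM, an alternative chosen after the data were seen, Mirg had a difference of 0.36 (SE 0.0973) and an adjusted p of 0.0955. It was then the only one of the 7 past both limits, among 277 of 16393 genes (1.69%). In the same voom fit Snhg11 (adjusted p = 0.00721), Rian (0.0197), Miat (0.0279) and Meg3 (0.0567) had smaller adjusted p-values but changes under 1.2-fold, and Malat1 (0.27) and Neat1 (0.33) were above the limit of 0.1.

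Of the 14 microRNA hairpins annotated in Mirg, 9 lie in exons and 13 had reads, at most 39 in a library. The exonic intervals had a median of 7.63 RPKM and the intronic ones 4.66 RPKM. Mir3072 and Mir410, printed above, had the highest means at 29.4 and 22.9 RPKM. For Mir3072 the groups overlapped, with 35 and 25.9 RPKM in WT and 31 and 25.8 in KI. For Mir410 they did not, with 16.6 and 21 RPKM in WT and 30 and 23.9 in KI, and the same held for Mir377, with 8.77 and 8.33 RPKM against 15.3 and 12.8. These hairpins were named after their values were seen, and all 3 overlap Mirg exons. Over the 13 Mirg hairpins tested, 3 had both KI values above WT, 0 had both below and 10 overlapped. Among all genes tested, 24% had both KI values above and 18.1% below.

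**Figure D2:**
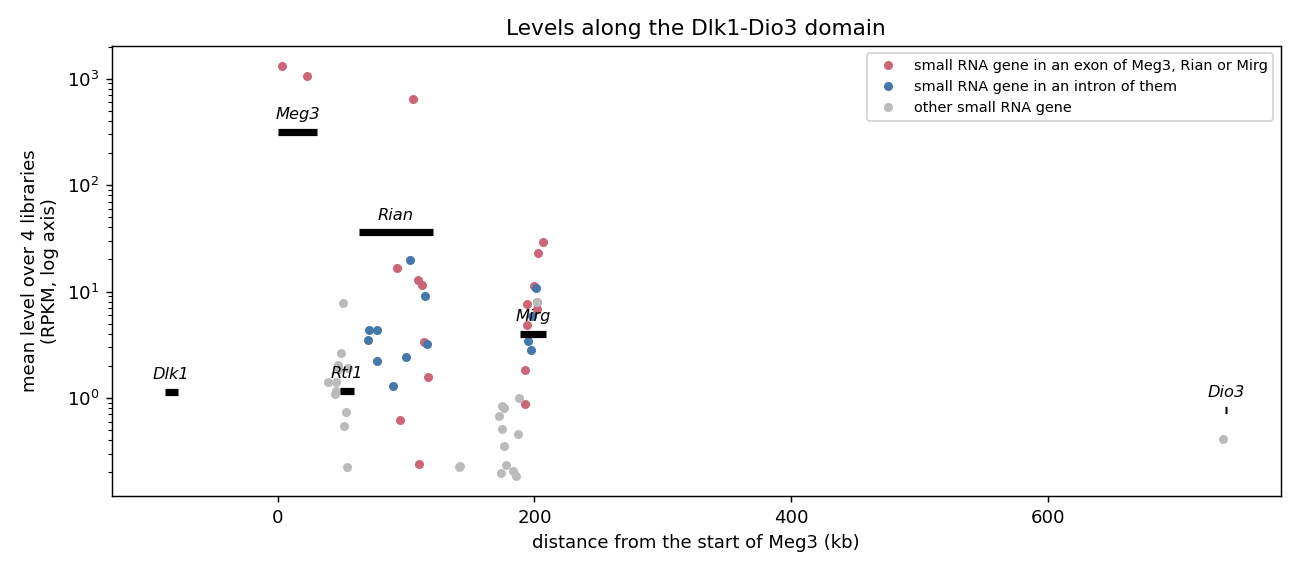
Mean level over the 4 libraries (RPKM, log axis) against the distance from the start of Meg3 (kb) along the Dlk1-Dio3 domain, with black bars spanning Dlk1, Meg3, Rtl1, Rian, Mirg and Dio3 and points for small RNA genes in exons (red) or introns (blue) of the 3 long RNAs or elsewhere (grey). The level falls from Meg3 at 315 RPKM to Rian at 35.9 and Mirg at 3.99 RPKM, and the protein-coding Dlk1 and Dio3 at the ends are at 1.14 and 0.77 RPKM.

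Within a library, the level of Rian was 11.1% and 10.8% of that of Meg3 in WT and 12.1% and 11.4% in KI. Mirg was at 1.2% and 1.12% of Meg3 in WT and at 1.46% and 1.26% in KI. Such ratios do not depend on how libraries are scaled. Both were higher in both KI libraries, by 0.10 and 0.23 on the log2 scale, and in an exact permutation test, two-sided, each gave p = 0.333, the smallest value 2 against 2 allows. In all 3 ratios were computed, the third being that of Neat1 to Malat1, so no adjusted value can fall below this.

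The protein-coding genes of the domain were at low levels. Dlk1, a Notch ligand relative expressed from the paternal chromosome, had 1.16 and 0.721 RPKM in WT and 1.11 and 1.56 in KI. Rtl1, a paternally expressed retrotransposon-derived gene, had 1.13 and 0.891 RPKM in WT and 1.07 and 1.61 in KI, and Dio3, a deiodinase that inactivates thyroid hormone, had 0.955, 0.558, 0.445 and 1.12 RPKM in the same order. In each of the 3 the groups overlapped, and the differences were 0.27, 0.21 and 0.00 (limma adjusted p = 0.671, 0.712 and 0.997). Dio3os was not listed in any library. Of 8 genes flanking the domain, 3 had both KI values above and 2 below the WT values and 0 were called, with Slc25a29 (0.17), Yy1 (-0.14), Dync1h1 (-0.12) and Degs2 (0.10) the most different. Their median difference was 0.01, that of all genes. By position, 61 genes between Dlk1 and Dio3 were tested, Meg3, Rian and Mirg included, of which 22 had both KI values above WT and 3 below. Among all genes tested, 24% had both KI values above and 18.1% below. Many of the 61 are small RNA genes with few reads, such as Mir539 with 0 and 0 in WT and 1 and 1 in KI. Many also overlap the long RNAs and are not independent of them.

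Miat, at chr5:112213228-112229395 (−), had 106 and 110 RPKM in WT and 125 and 124 RPKM in KI. The KI libraries lay close together and above both WT libraries. Its means were 108 ± 2.7 and 124 ± 0.682 RPKM (SD, n = 2), a ratio of 1.15 and a difference of 0.20 (SE 0.04, limma adjusted p = 0.398). The antisense gene Gm26953 shares 2260 of the 9293 exon bases of Miat, 24.3%, and had 302 and 303 RPKM in WT and 338 and 349 RPKM in KI. With the strand of the counting not stated, how much of either value belongs to the other gene cannot be told apart. Among 8 genes flanking Miat, 7 were tested, 2 had both KI values above WT and 0 were called, with Crybb1, a lens crystallin (0.60, from 8 to 41 reads), Hps4 (0.24), Srrd (0.15) and Tpst2 (0.09) the most different.

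Snhg11, at chr2:158375638-158386145 (+), is labelled protein coding in the annotation used here although it is known as a noncoding host gene. It had 252 and 243 RPKM in WT and 307 and 285 RPKM in KI. The lower KI value was 1.13 times the higher WT value. With means of 248 ± 6.9 and 296 ± 15 RPKM (SD, n = 2), the ratio was 1.2 and the difference 0.26 (SE 0.06, limma adjusted p = 0.399). A total of 9.09% of all genes had a larger positive difference. Both small nucleolar RNA genes inside Snhg11 had reads, at most 59 in a library. Of 7 genes flanking Snhg11, 4 were tested, 1 was higher and 1 lower in both KI libraries, and 0 were called, with Ppp1r16b, a phosphatase regulator (-0.14), and Slc32a1, the vesicular GABA transporter (0.13), the most different.

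Other host genes of small nucleolar RNAs lay on both sides. Of 10 in the list, 7 were tested, 2 had both KI values above WT, 2 below, and 0 were called, with a median difference of -0.14. Epb41l4aos was lower in both KI libraries (6.45 ± 0.188 against 4.12 ± 0.113 RPKM, SD, n = 2), with a difference of -0.54 (limma adjusted p = 0.307) from 24 to 38 reads a library. Snhg3 (0.48) and Snhg20 (0.29) were higher in both KI libraries, and Snhg12 overlapped (-0.15).

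Malat1, at chr19:5795690-5802672 (−), had 156 and 123 RPKM in the WT libraries and 121 and 123 RPKM in the KI libraries. A single library, WT replicate 1, thus stood above the other 3, and the groups overlapped. The means were 140 ± 23.7 and 122 ± 1.34 RPKM (SD, n = 2), with a difference of -0.18 (SE 0.12, limma adjusted p = 0.677). Without WT replicate 1 the difference was -0.01, and without WT replicate 2 it was -0.35. Its coefficient of variation was 17% in WT and 1.1% in KI, beside a counting error of 0.826 to 1.15%. After median-of-ratios scaling the higher KI value was 122.2 and the lower WT value 122.7, so that the groups no longer overlapped, and the same held after quantile normalization.

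Neat1, its neighbour at chr19:5824708-5845478 (−), had 8.43 and 8.97 RPKM in WT and 8.57 and 6.67 RPKM in KI. Here KI replicate 2 was low and KI replicate 1 lay between the WT values. The means were 8.7 ± 0.376 and 7.62 ± 1.34 RPKM (SD, n = 2), and the difference was -0.18 (SE 0.12, limma adjusted p = 0.685), or -0.02 without KI replicate 2 and -0.34 without KI replicate 1. The longer form of Neat1 has no poly(A) tail, so the level in a poly(A) library is not that of all Neat1 RNA. Although the genes are neighbours, Neat1 and Malat1 departed in different libraries, and Neat1 was at 5.4% and 7.3% of Malat1 in WT and at 7.06% and 5.41% in KI (exact permutation test, two-sided, p = 1).

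Of 8 genes around Malat1 and Neat1, 3 had both KI values above WT, 0 below and 0 were called, with Ltbp3, a TGFβ-binding matrix protein (0.33), Slc25a45 (0.23) and Frmd8 (0.19) among the most different. Among 10 paraspeckle proteins, partners of Neat1, 2 had both KI values above WT and 2 below, 0 were called, and the median difference was -0.04. Pspc1 was lower in both KI libraries (12.6 ± 1.42 against 10.4 ± 0.521 RPKM, SD, n = 2), with a difference of -0.24 (limma adjusted p = 0.518). Among 10 speckle and splicing factors, which include partners of Malat1 and Miat, 0 lay above and 3 below, 0 were called, and the median was -0.04. Of the most different, Srsf5 (-0.15) and Celf3 (-0.14, 84.4 ± 1.08 against 76.7 ± 1.25 RPKM) were lower in both KI libraries, and Qk (-0.06) overlapped.

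**Figure D3:**
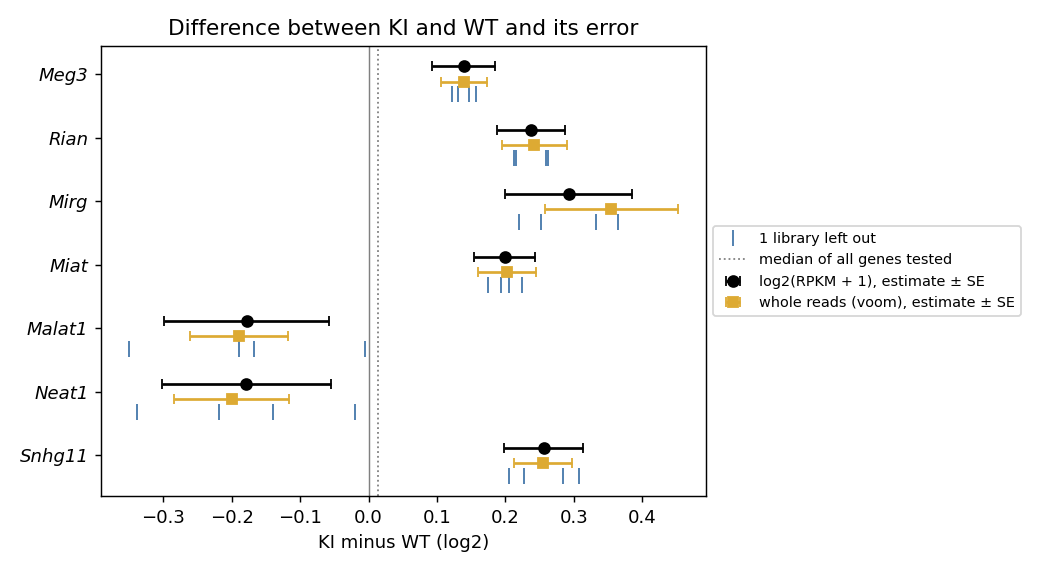
Difference between KI and WT (log2) with its SE for each RNA, from log2(RPKM + 1) in black and from whole reads with voom in yellow, ticks for the fits without 1 library in blue, and a dotted line at the median of all genes tested. For Malat1 and Neat1 the ticks span from near 0 to -0.35 and -0.34, while for the other 5 RNAs all ticks lie above 0.10.

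Leaving out each library in turn kept the difference between 0.12 and 0.16 for Meg3, 0.21 and 0.26 for Rian, 0.22 and 0.36 for Mirg, 0.17 and 0.22 for Miat and 0.20 and 0.31 for Snhg11. Replicates of Meg3, Rian and Miat differed by a factor of 1.01 to 1.04, whereas those of Malat1 in WT differed by 1.27 and those of Neat1 in KI by 1.28. Of 20 other brain long noncoding RNAs looked for, 12 were tested. Of these, 4 had both KI values above WT, 0 had both below, 0 were called, and the median difference was 0.10. The largest differences were those of A330023F24Rik (12.7 ± 0.952 against 15.3 ± 0.694 RPKM, 0.25), 6330403K07Rik (84.4 ± 2.11 against 98.4 ± 4.44 RPKM, 0.22), Pantr1 (6.95 ± 0.458 against 8.09 ± 0.0692 RPKM, 0.19; SD, n = 2) and Dlx6os1 (0.19, from at most 3 reads).

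**Figure D4:**
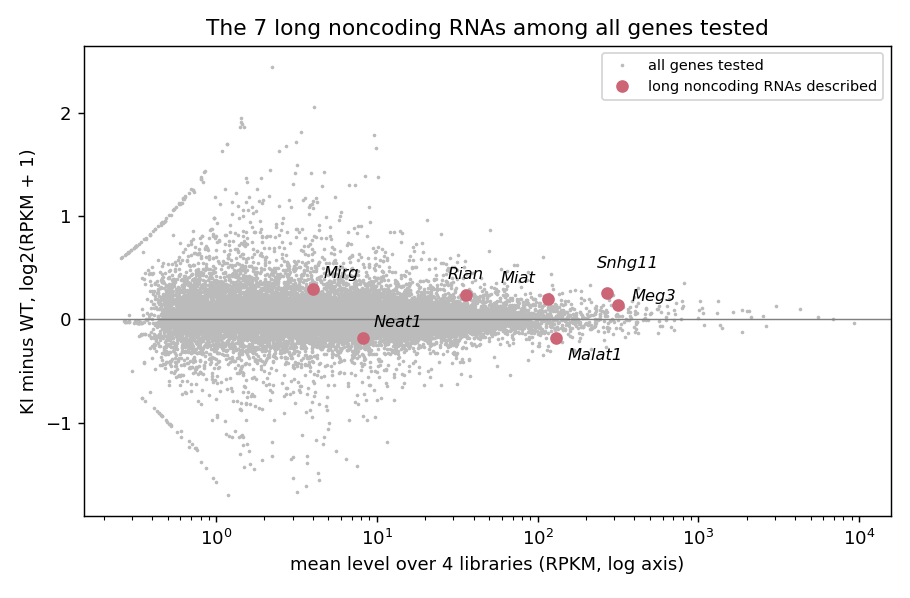
Difference between KI and WT on log2(RPKM + 1) against the mean level over 4 libraries (RPKM, log axis) for the 18436 genes tested (grey) with the 7 long noncoding RNAs in red. Mirg at 3.99 RPKM lies among genes with a wide scatter, while Meg3, Snhg11, Miat and Malat1 lie where the differences of other genes are smaller.

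The pattern over the 4 libraries was also compared by distance, the Euclidean distance of mean-centred log2(RPKM + 1) values, as a description over 4 samples. Rian and Snhg11 were 0.0424 apart, and 0.125% of genes were nearer to Snhg11. Mirg and Snhg11 were 0.0498 apart, and Rian and Mirg 0.09. Meg3 lay nearest to Miat among the 7, at 0.0831. Of all genes, 5.17% were nearer to Meg3 than Miat was, 13% were nearer than Rian and 44.9% nearer than Mirg. Malat1 and Neat1 were far from the other 5, at 0.394 to 0.52, and from each other, at 0.385.

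Among all genes tested, the nearest to Meg3 were Ldb3 (distance 0.00725) and Fbxl21, and the nearest to Rian were Ly6e (0.0144) and Lrp4. Ly6e had 59.3 and 57.1 RPKM in WT and 70.7 and 68.2 in KI, which is the order of the libraries seen in Rian. For Mirg they were Myo1f (0.0133) and Efemp2, and near Miat and Snhg11 lay Myo1h (0.0142) and P2rx4 (0.0203). The nearest to Malat1 were Gm14584 (0.0171) and Zfp853, and to Neat1 Syt14 (0.0313) and Gm12482. Gm14584 had 17.3 RPKM in WT replicate 1 and 13.2 to 13.7 in the other libraries.

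Markers of the hippocampus and of its cell types were checked beside these values. Every marker had reads in all 4 libraries, hippocampal ones included, among them Neurod6 of pyramidal neurons at 117 ± 0.469 RPKM in the WT group against 122 ± 11.3 RPKM (SD, n = 2). Of 7 subfield markers 3, all of dentate granule cells, were lower in both KI libraries, namely Dsp (-0.61), Prox1 (-0.52; 17.1 ± 0.28 against 11.6 ± 2.06 RPKM) and C1ql2 (-0.39), and the summed level of the list was 270 and 271 RPKM in WT and 246 and 262 in KI. Wfs1, which overlapped, had 28.6 RPKM in KI replicate 1 and 50.9 in KI replicate 2, beside 42.2 and 41.2 in WT. Of 5 neuronal markers 1, Tubb3, was higher in both KI libraries (0.20), with sums of 689 and 691 against 723 and 708 RPKM. Of 5 microglial markers 3 were higher and 1 lower, with sums of 76.8 and 78.1 against 90.1 and 88.6 RPKM and the largest difference in C1qa (0.51). C1qa alone had 27.7 and 29.4 RPKM in WT and 39.2 and 43.2 in KI. The other differences were 0.30 (Aif1), 0.09 (Csf1r), 0.03 (Cx3cr1) and -0.29 (P2ry12), so the sums do not describe the list as a whole.

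Oligodendrocyte markers, 0 of 5 apart between groups, summed to 677 and 785 RPKM in WT and 845 and 644 in KI, and astrocyte markers, 2 of 5 higher and 1 lower, to 254 and 256 against 252 and 260. Endothelial markers, 2 of 5 higher and 1 lower, summed to 43.1 and 48.7 against 46.5 and 46.5 RPKM. Of 5 choroid plexus markers, 3 were tested and 1, Kl (0.39), was higher. Their sum was 13.7 and 19.3 RPKM in WT but 59.5 in KI replicate 1 and 16.2 in KI replicate 2. Ttr alone had 8.13 and 13.8 RPKM in WT and 51.3 and 8.89 in KI, so the sum does not describe the list. Markers of neocortex and thalamus, of which 4 of 5 were tested with 1 higher and 1 lower, summed to 20.4 and 19.5 against 25.8 and 21.7. Of all these markers 0 were called by limma. The part of these marker levels in the differences of the long noncoding RNAs was not tested, and in bulk tissue fewer cells of a type and less RNA per cell cannot be told apart.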

How the data were processed

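Poly(A) RNA from hippocampus was sequenced in 2 WT and 2 KI libraries, as read pairs on an Illumina HiSeq instrument. The authors aligned the reads to mm10 with GSNAP (the submitters' processing notes also name CASAVA), used only pairs mapped properly to a unique place, and deposited RPKM values per gene of Ensembl release 74, in 1 file per library. The counting tool and its use of strand are not given in the sources used here. Genes missing from a library's file were given 0 there.

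The 7 RNAs, the gene lists and the tests were chosen with earlier results of these data known. All genes that reached 0.5 RPKM in 2 or more libraries were tested with limma (version 3.58.1, R version 4.3.3) on log2(RPKM + 1) with limma-trend and p-values adjusted by Benjamini-Hochberg. The fit was also run on simulated data with changes larger than those of the 7 RNAs. That run does not show whether changes of their size would be found. The deposited values are not counts, so a test on log RPKM took the place of the authors' count-based test. RPKM times exon length and depth gave whole reads at the annotated length for 15467 of 26328 genes. For the other 10861 the shortest length that gave whole reads was taken, so their reads can be understated. Depth was worked out from the RPKM values by taking the commonest value as 1 read. The whole reads were used for the voom fit. Counting errors cover sampling of reads only. Positions, exon lengths and gene types are from GENCODE M21 (GRCm38), and promoter and microRNA sequences are from RefSeq (GRCm38.p6). Ratios were compared by exact permutation tests with scipy (version 1.17.1). Named were the 7 RNAs, Kdm1a, the other genes of the domain, up to 4 genes with the largest difference of each list, and the 2 nearest genes of each RNA, with genes chosen after their values were seen said to be so, and the antisense and hairpin genes chosen for their overlap. Some genes that this rule names are not reported here. Alternatives changed the pseudocount, the filter, the scaling, the trend, the replicate block, the fold limit and the libraries.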

Additional observations from a re-analysis of the deposited data

How the results depend on the processing

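The number of genes called by limma was 0 on log2(RPKM + 1) and remained 0 with a pseudocount of 0.1, no filter, quantile normalization, median-of-ratios scaling, a limit of 1.5-fold and the replicate block, and was 0 to 0 when each library was left out. It was 1 with at least 10 reads in every library, 20 without the mean-variance trend, 277 with voom on whole reads, 444 with voom and the replicate block, and 50 with the replicate block and at least 10 reads. The last 3 were chosen after the data were seen, and the cause was not tested. Of the 7 long noncoding RNAs, 0 were called in all planned settings (0 to 0 without 1 library), and 1, Mirg, with voom on whole reads (0.36) and with voom and the replicate block (0.37). The labels give the replicate numbers no further meaning. The deviations of same-numbered libraries from their group means had a correlation of -0.0249 over 18436 genes, which cannot tell whether such libraries were handled together. The replicate block alone left the count of genes at 0, but with it the count went from 1 to 50 at 10 reads or more and from 277 to 444 with voom.

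No member's difference changed sign under any setting, and rescaling moved the median of all genes by less than 0.1. The number of members whose groups did not overlap was 5, and 6 under both scalings and without any 1 library, 5 higher and 1 lower in KI. Without 1 library, 2 values face 1, so groups separate more easily and the count of 6 is no check on the result. The share over all genes was not computed for these settings. The added member was Malat1 under both scalings and without WT replicate 2 or KI replicate 2, and Neat1 without WT replicate 1 or KI replicate 1. The log2 difference of the Rian to Meg3 ratio was 0.06 to 0.15 and that of Mirg to Meg3 0.12 to 0.33 without 1 library. That of Neat1 to Malat1 was -0.02 and ranged from -0.24 to 0.20, turning to 0.20 without WT replicate 2 and to 0.17 without KI replicate 2. Depth limits Mirg, the small RNA intervals and Dlk1, Rtl1 and Dio3, whose reads are few.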
